A study of Drosophila melanogaster with 2 samples.

Results

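The genes described here encode subunits of Mediator and TFIID, the large assemblies through which activators and core promoters engage RNA polymerase II. They were taken as the protein-coding genes of the Release 6 annotation whose symbol is MED or Taf followed by a digit, which gave 40 of 13946 protein-coding genes, 25 of them MED genes and 15 Taf genes. Accessible regions were assigned to a gene when they overlapped its body or the 500 bp beyond either end by at least 1 bp. By this rule 67 of the 26571 regions in the deposited list were assigned, 1 of them to a neighbouring pair of genes, which makes 68 gene and region pairs.

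ATAC-seq, an assay in which a transposase inserts sequencing adapters into open DNA, had been run on ML-DmD17-c3 cells, here D17, a line of Drosophila melanogaster from the haltere imaginal disc, with 2 libraries. The labels name no treatment, genotype or second group, and the libraries were deposited as 1 peak list. Every value below therefore comes from that list and carries no replicate spread, and whether the libraries came from separate cultures is not stated. Transcripts were not measured, so the identity of the line was not checked against marker expression, and accessibility of a gene is not a measure of its expression.

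Mediator is built from a head and a middle module that contact the polymerase, a tail module that many activators bind, and a detachable kinase module, with MED14 as the backbone that joins head, middle and tail. TFIID consists of the TATA-binding protein Tbp and the TBP-associated factors, the Taf proteins. It recognises core promoter sequence and helps to place the polymerase at the start site. Many Taf proteins pair through histone folds, among them Taf4 with Taf12, Taf6 with Taf9, and Taf11 with Taf13. Both complexes serve most genes transcribed by RNA polymerase II, so their subunits are broadly expressed.

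Accessible regions were found at 28 of the 40 genes (70.0%, exact binomial 95% interval 53.5 to 83.4%), against 78.5% of all protein-coding genes. All of these 28 genes also had a region within 500 bp of an annotated end, so the share at gene ends was 70.0% as well, against 68.6% of all protein-coding genes. Both shares lay near the background. The number of regions per gene had a median of 2, against 1 over all protein-coding genes, and ran up to 6. On gene bodies alone, or in the 50% of regions with the higher score, both medians were 1. No region was assigned to 12 genes, 1 to 4 genes, 2 to 14 genes and 3 to 7 genes. MED1, Taf4 and Taf1 had 4, 5 and 6. These intervals treat genes as independent, which neighbouring genes that share a region are not.

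The enrichment at these genes was modest, as it was over the whole list. The deposited fold, read here as reads at the summit over local background, had a median of 1.89 over the 67 regions and 1.90 over all 26571 regions. Taking each gene by its highest region, the median fold was 2.10 over the 28 genes (quartiles 2.03 and 2.49), against 2.17 over all protein-coding genes with a region (quartiles 1.86 and 2.71). The highest fold of a gene was under 2 at 5 genes, from 2 to 2.5 at 16 and 2.5 or more at 7. The fold was under 2 at 58.2% of the 67 regions and at 58.3% of all regions. In 14 of the 67 regions the whole 95% Poisson interval of the fold lay below 2. These intervals were computed from the recovered pileup and cover counting error only. Background shares were not computed for the 14 regions or for the split of genes by highest fold. Those counts are therefore not read as a trait of the members.

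Strong regions, defined as the 10% of the list with the highest fold (at least 2.999), were assigned to 3 genes, MED19, Taf12 and MED7. That is 7.5% of the 40 genes (exact binomial 95% interval 1.57 to 20.4%), against 15.3% of all protein-coding genes. The background mixes genes of very different length. Among the protein-coding genes in the same length range as the members, 560 to 10463 bp, 10.8% had a strong region. A region of any strength was found at 78.8% of genes in that length range.

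**Figure D1:**
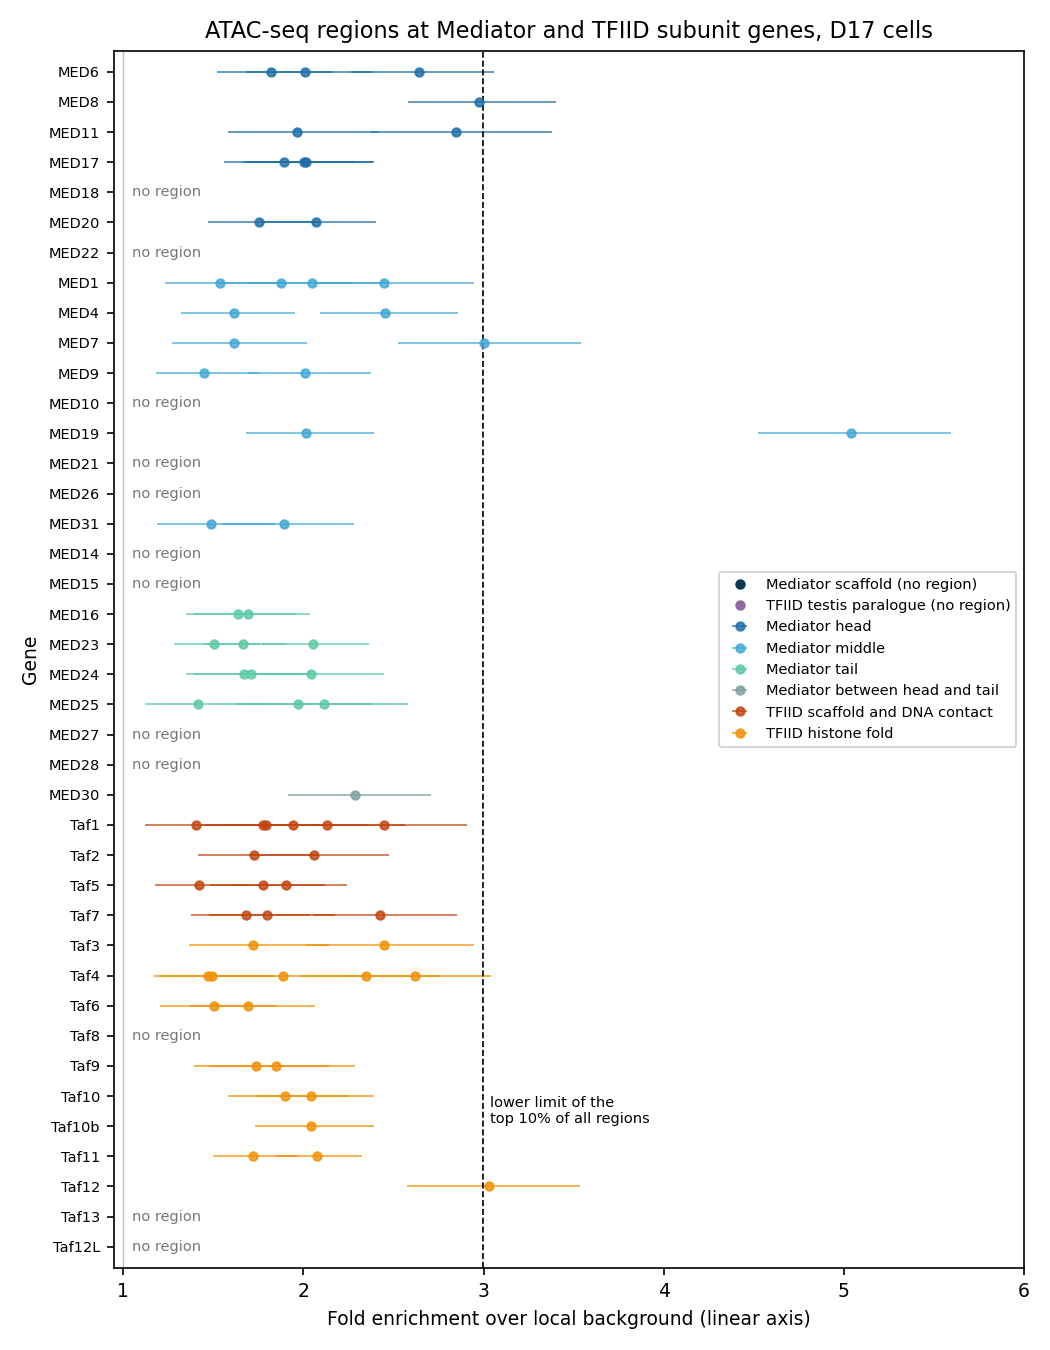
Fold enrichment over local background (horizontal, linear axis) of every accessible region assigned to the 40 genes (vertical, ordered by module). Points are regions, bars are 95% Poisson intervals of the summit pileup, and the dashed line marks the lower limit of the strong regions at 2.999. MED19 stands apart at 5.04, MED8, MED7 and Taf12 lie on the limit, and 12 genes have no region.

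The MED19 region was the strongest in the group. MED19 encodes a middle-module subunit that binds Hox homeodomain proteins in Drosophila. Its region at 3L 17845854 to 17846616 had a fold of 5.04 (95% Poisson interval 4.52 to 5.60), with 345 reads at the summit over a background of 67.7. It crossed the upper end of the gene, and the summit lay inside MED19, 161 bp from that end. In the whole list 97.6% of regions had a lower fold. The window of CG7430, which begins 414 bp beyond that end, also took in this region. A second region, 196 bp outside the lower end by its summit, had a fold of 2.01. The intervals of the 2 regions did not overlap.

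The other strong regions, and the next below them, could not be separated from the limit. Taf12, the histone-fold partner of Taf4 and a subunit of the coactivator SAGA as well, had its single region in the gene interior at 3R 11678593 to 11679416, with a fold of 3.03 (2.58 to 3.54, 158 reads). MED7, whose yeast counterpart forms a flexible hinge with MED21, had 3.0 (2.53 to 3.54, 139 reads) at 3R 10761249 to 10762002, wholly outside the gene and 460 bp by its summit from the upper end. That region overlapped the body of the neighbouring gene Cap-H2, which lies 277 bp beyond MED7. Just outside the limit lay MED8, a head subunit, with 2.97 (2.58 to 3.40, 207 reads) at 2R 20327227 to 20327759. This region too lay wholly outside its gene, and it overlapped the body of the neighbour CG8929. Next came MED11, also of the head, with 2.84 (2.38 to 3.38, 128 reads) at 3L 18745848 to 18746515. All 4 intervals include 2.999, so of the 3 genes above it MED19 alone stood clear of it.

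Among the head subunits, 5 of 7 genes had a region. MED6, one of the most conserved subunits, had folds of 2.64 in the interior, 2.01 at the lower end and 1.82 at the upper end. The interior region, at 3R 9767766 to 9768526, had 173 reads at its summit (fold interval 2.26 to 3.06). It also overlapped the body of Naa80, a gene that overlaps MED6. MED17, the central head subunit, had folds of 2.02, 2.00 and 1.89, which cannot be told apart by counting error. The MED17 region of 2.02 lay 159 bp beyond the gene. MED20 had 2.07 and 1.75. Neither MED18 nor MED22 had a region. The nearest lay 529 bp from MED18 (fold 1.58), the smallest such distance among the 12 genes, and 6247 bp from MED22 (fold 5.09).

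In the middle module 6 of 9 genes had a region and 2 of the group's 3 strong genes belong to it, MED7 by a region outside the gene. MED1, a subunit that binds nuclear receptors in mammals, had 4 regions with folds of 2.45, 2.05, 1.87 and 1.53. The highest lay outside the gene, its summit 1025 bp from the lower end and its near edge 461 bp away. MED4 had 2.45 outside its lower end and 1.61 inside it. The fold of MED9 was 2.01 for a region outside the gene and 1.45 for one across its lower end, and MED31 had 1.89 and 1.49. MED10, MED21 and MED26 had none.

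In the tail, which carries the main targets of activators, 4 of 5 genes had a region and none was strong. MED25, which the viral activator VP16 binds in human cells, was covered over 90.0% of its length, by a region of 2489 bp with a fold of 1.97. Its highest fold, 2.12, lay outside its lower end. MED24 had 2.04, 1.71 and 1.67, and MED16 had 1.69 and 1.63, the lowest maximum among the Mediator genes with a region. MED23 had 2.05, 1.66 and 1.50. MED15, a target of many activators in yeast, had none, the nearest lying 1814 bp away (fold 2.97). Of the subunits between head and tail, MED30 lay entirely within 1 region of 2149 bp (fold 2.28, interval 1.91 to 2.71), and MED27 and MED28 had none.

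Among the Taf genes, 12 of 15 had a region, against 16 of 25 MED genes. The exact binomial 95% intervals, 51.9 to 95.7% for Taf genes and 42.5 to 82.0% for MED genes, overlap widely, and the difference was not tested. The median of the highest fold was 2.07 at Taf genes and 2.20 at MED genes.

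Taf1, Taf2, Taf5 and Taf7, which form the scaffold of TFIID or contact DNA and one another outside the histone-fold pairs, all had regions. Taf1, the largest subunit, which reads acetylated histones through bromodomains, had 6. From the lower to the upper coordinate their folds were 1.94, 2.13, 1.77, 1.79, 1.40 and 2.45, the last beyond the gene and shared with the windows of CG1307 and twr. The first of them covered the lower end itself, with its summit 24 bp inside. Taf2, which contacts the initiator element, had 2.06 outside its lower end and 1.73 inside. Taf7, which binds Taf1, had a highest fold of 2.43, in a region 431 bp beyond the gene that overlapped the body of another gene. The regions on the body of Taf7 had 1.80 and 1.68. Taf5, a WD40-repeat protein, had a highest fold of 1.90.

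Of the 10 histone-fold genes, 8 had a region. Taf4 had 5, the highest of them across its lower end (3L 16113196 to 16114644, fold 2.62, interval 2.24 to 3.04, 171 reads), with 2.35, 1.49, 1.47 and 1.89 following along the gene. Taf3 had 2.45 and 1.72. The pair Taf6 and Taf9 had highest folds of 1.69 and 1.85, the lowest maxima among Taf genes with a region. Taf10 and Taf10b, neighbouring paralogues on 2L that lie 44 bp apart, shared 1 region, which spanned the gap between them at 2L 2767567 to 2767928 with a fold of 2.04 (1.73 to 2.39). It covered 49.8% of Taf10b and 5.39% of Taf10. Taf11 had 2.08 and 1.72, both outside the gene, while its partner Taf13 had none, with the nearest 717 bp away. Taf8 had none either, with the nearest at 624 bp. Taf12L, the paralogue of Taf12 that is used in the male germline, had no region, and the nearest lay 4425 bp away.

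**Figure D2:**
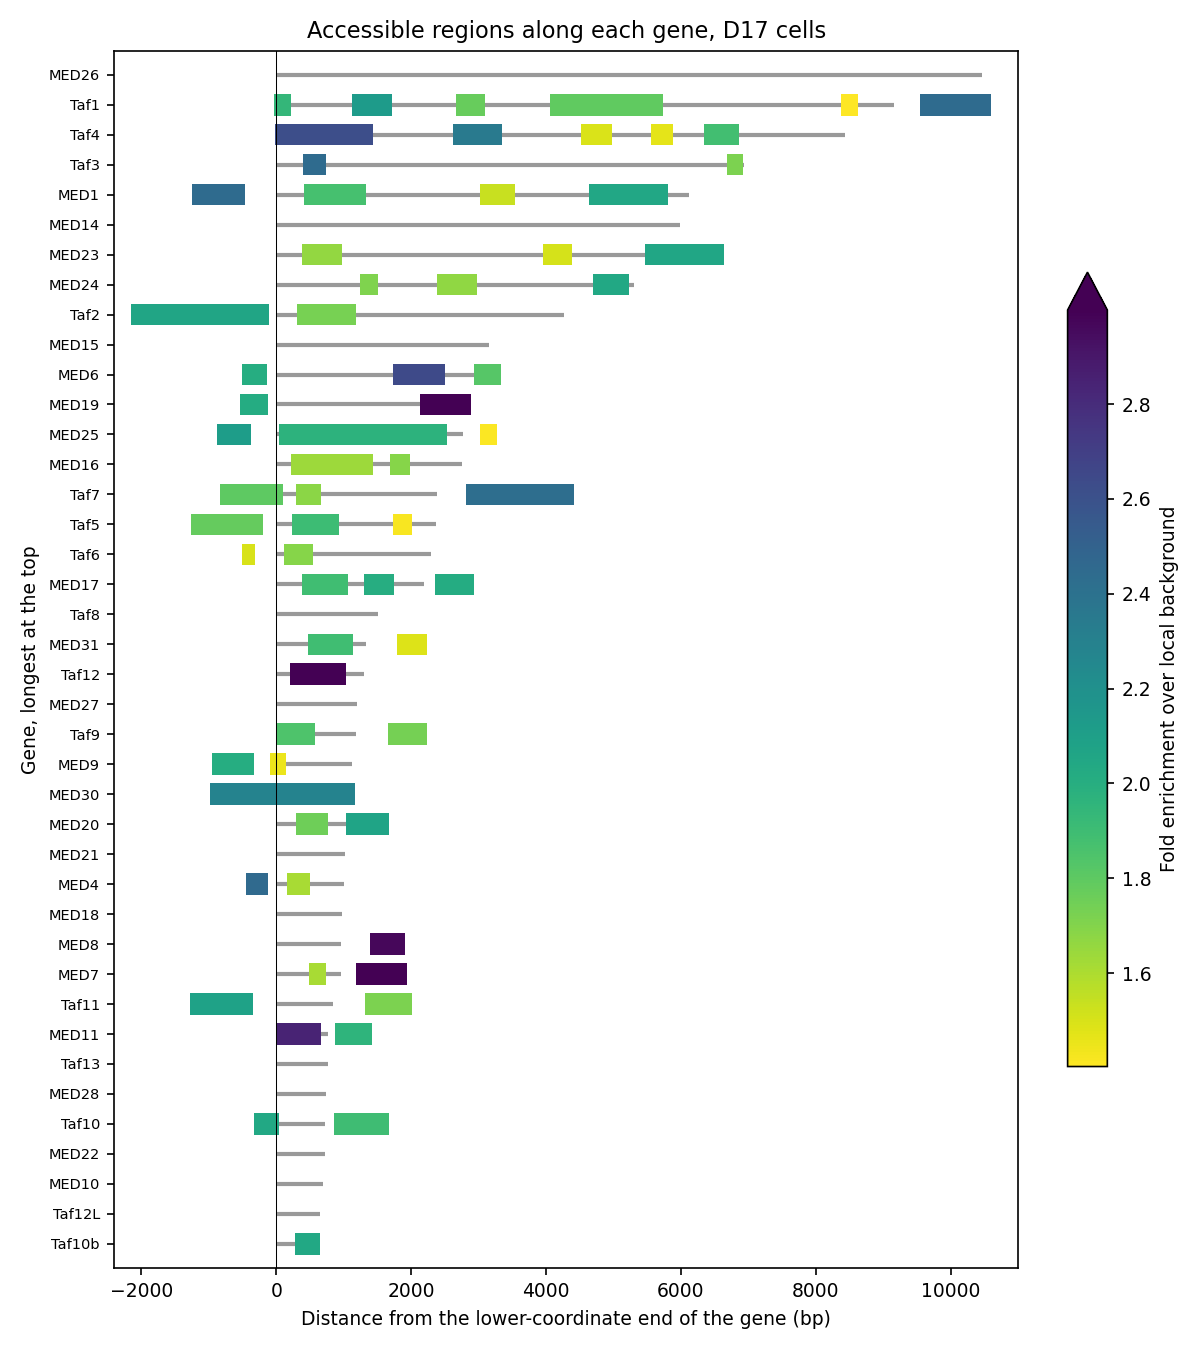
Accessible regions (boxes, coloured by fold, darker for higher values up to the arrow) along each of the 40 genes (grey lines), with the distance in bp from the lower-coordinate end on the horizontal axis and genes ordered by length. Strand is not shown, so the vertical line is a start for some genes and a stop for others. Many boxes lie just inside or just outside the line rather than on it, and the long genes MED26 and MED14 carry none.

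Short members had a region less often than members of 2 to 4 kb, with intervals that overlap across all length classes. A region was found at 7 of 13 members shorter than 1 kb, 6 of 9 from 1 to 2 kb, 8 of 9 from 2 to 4 kb and 7 of 9 of at least 4 kb. In all protein-coding genes the shares rose with length and were 47.5%, 76.3%, 87.8% and 93.3% in these classes, the last of which holds genes far longer than any member. Across genes, Spearman's rho between length and number of regions was 0.50 over the 40 members and 0.64 over all 13946 genes. A longer window takes in more regions by construction. The length classes were chosen after the values were seen. Strong regions were assigned to none of the 9 longest members (upper limit of the exact binomial 95% interval 33.6%), against 24.8% of the 2311 protein-coding genes from 4 kb to the length of the longest member, a share inside the members' interval. Any region was found at 92.7% of these 2311 genes.

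**Figure D3:**
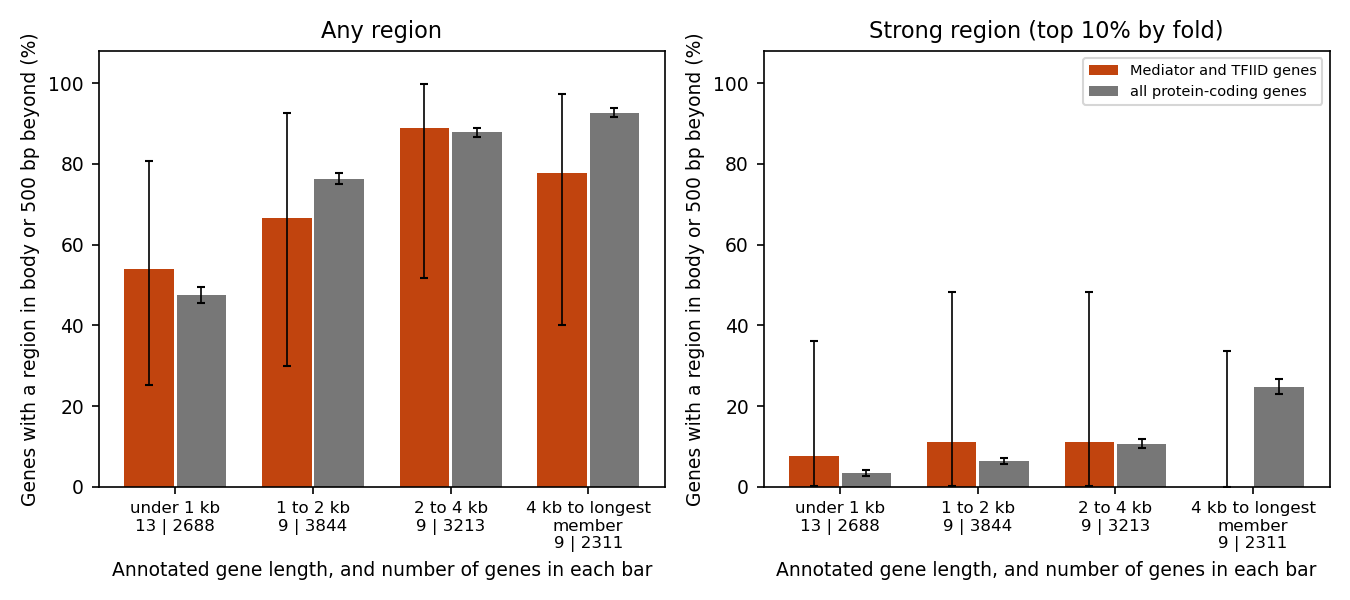
Share of genes with any region (left) and with a strong region (right) in the gene body or 500 bp beyond, in percent, by annotated length, for the 40 members (orange bars) and all protein-coding genes (grey bars). Error bars are exact binomial 95% intervals and the figures under each class give the number of genes in each bar. The longest class is limited to the length of the longest member, and there the members have 7 of 9 and 0 of 9 genes. In every class the share of all protein-coding genes lies inside the members' interval.

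The long members without a region were MED14 and MED26. MED14, of 5994 bp on 3L, had its nearest region 3628 bp away (fold 1.83). Of the 877 protein-coding genes of 5 to 7 kb, 7.64% lacked a region, and of those on 3L of at least 4 kb 3.42% did. MED26, a subunit that recruits elongation factors in human cells, is the longest member with 10463 bp and lies on chromosome 4, with its nearest region 915 bp away (fold 1.85). Among genes of 9 to 12 kb 9.36% lacked a region. On chromosome 4, however, 31 of the 64 genes of at least 4 kb (48.4%) lacked one, so the lack at MED26 is common for that chromosome. Taf3, the other member on chromosome 4, had regions near both of its ends.

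The remaining members without a region were shorter, from 651 to 3158 bp. Of the 12 genes, 6 had a region within 1000 bp of an end, and the median distance was 1144.5 bp. Over the 2999 protein-coding genes without a region it was 2338 bp, and 734 of them had one within 1000 bp. The rule's margin thus decides several members. Just inside it were Taf9 (473 bp from gene to region, fold 1.74) and Taf11 (472 bp, 1.72), each of which also had another region. MED8, at 420 bp, rested on this 1 region. Just outside it were MED18 (529 bp, 1.58) and MED27 (550 bp, 2.05).

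These genes lie close to their neighbours, and most of their regions also came within 500 bp of another gene. Another protein-coding gene overlapped or lay within 500 bp of 38 of the 40 members (95%), against 78.9% of all protein-coding genes. Over those in the members' length range the share was 81.4%. Of the 67 regions, 47 (70.1%, exact binomial 95% interval 57.7 to 80.7%) also touched the body or 500-bp margin of another protein-coding gene, against 24.7% of the 22699 regions at any protein-coding gene. The 24.7% counts each region once and takes in genes of every length. A region that touches more genes has more chances to be a member region. The contrast is therefore in part built in and is not read as a trait of the members. On gene bodies alone, without the margins, 22.2% of the 45 regions on a member's body touched the body of another gene, against 9.91% over all protein-coding genes. All 22 of the gene and region pairs in which the region lay off the member's body touched another gene. The same share was not computed over all protein-coding genes, so the count is not read as a trait of the members. A region touching no other protein-coding gene was found at 10 members, a count likewise without a background share, and there were 20 such regions. Taf1 and Taf4, which are long, had 5 each.

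A few neighbours with known roles in transcription or chromatin were picked out after their values were seen. The region of fold 2.07 at 2L 8072850 to 8073489 lies just past the upper end of MED20 and inside Trf, which encodes a TBP-related factor, and the genes are 46 bp apart. A region of fold 1.50 that lay 315 bp outside the lower end of Taf6 overlapped the body of ash1, a Trithorax group histone methyltransferase gene. Of the members with a region, 16 of 28 had their highest one on their own body, and at MED8 and Taf11 every region lay off it. Matching shares over all protein-coding genes were not computed, so these counts are not read as a trait of the members.

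The annotated ends themselves were seldom inside a region. The outermost base of the gene lay in a region at 12 of the 80 ends (15.0%, exact binomial 95% interval 8.0 to 24.7%), although a region came within 500 bp of 48 of them. At 100 bp outside the end the share was 8.75%, and 600 bp inside it was 52.4% of the 42 ends of genes long enough. Outside the gene it reached 38.8% at 820 bp. Over all protein-coding genes the same distances gave 12.4% at the end, 9.73% at 100 bp outside, 33.4% at 600 bp inside and 23.0% at 820 bp outside. Regions covered 12.5% of the chromosome span. The dip outside the end appears in both sets of genes. The distances of 600 and 820 bp are those of the members' own highest shares. At 200 bp inside the members had 18.8% against 19.1%, at 700 bp 36.8% against 33.1%, and at 1000 bp 27.8% against 29.0%. The differences were not tested, and the positions outside the gene take in regions of close neighbours. By summits, 29 of the 68 pairs (42.6%, exact binomial 95% interval 30.7 to 55.2%) had the summit within 500 bp of an end of the member, against 24.3% over all protein-coding genes and 36.2% over those in the members' length range. The summit was inside the member in 41 pairs (60.3%), against 79.4% over all protein-coding genes and 70.0% over those in the length range.

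**Figure D4:**
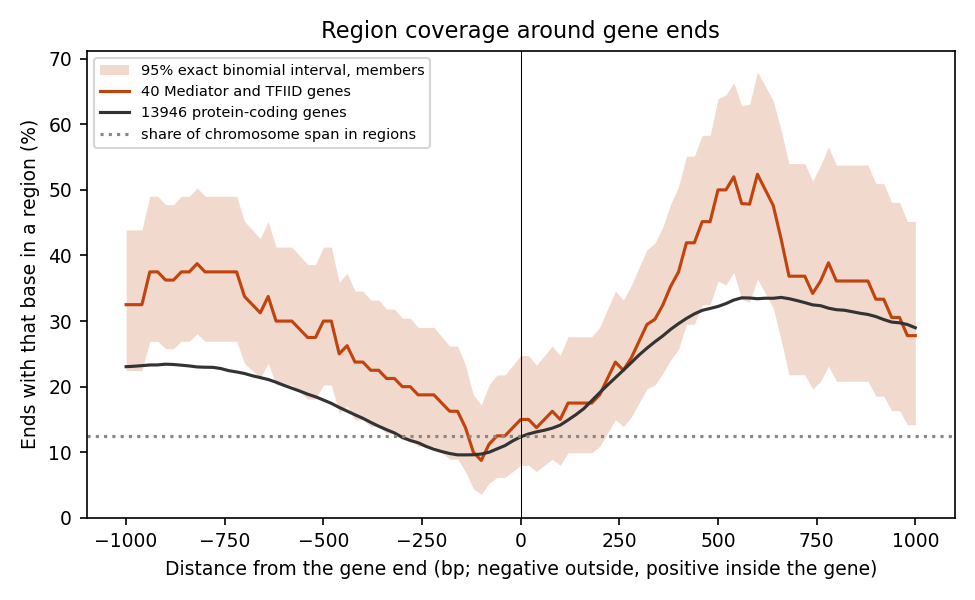
Percentage of gene ends (vertical) whose base at a given distance from the end (horizontal, in bp, negative outside and positive inside the gene) lies in an accessible region, for the 40 members (orange, shaded 95% exact binomial interval) and all protein-coding genes (black). Inside positions stop at the middle of the gene, so their number falls with distance. Both lines dip about 100 bp outside the end, to 8.75% and 9.73%, and the members peak at 52.4% at 600 bp inside, against 33.4%, with the lines close together at 200 and 1000 bp inside.

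In 12 of the 80 ends (15.0%) the end base was free while a region lay on each side within 500 bp, counted inside up to the middle of the gene, a pattern found at 5.27% of the ends of all protein-coding genes. It was seen at the lower ends of MED1, MED4, Taf2, Taf5 and Taf6, at the upper ends of MED7, MED11, MED17, MED20 and MED31, and at both ends of MED25. At MED4, for example, a region of fold 2.45 (2.09 to 2.86) ended 121 bp before the lower end and one of fold 1.61 (1.32 to 1.95) began 158 bp inside it. Which of the ends are transcription starts is not given in the annotation used here, so starts and stops were pooled. The shares of 15.0% and 5.27% were not matched for gene length or neighbours, and their difference was not tested. A neighbouring gene overlapped or lay within 500 bp of 68 of the 80 member ends, against 17786 of 27892 over all protein-coding genes. At every one of the listed ends the outside region overlapped the body of another protein-coding gene, which is Cdc27 at MED4. The pattern is therefore not read as a trait of the members.

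Pileup and fold ranked the members differently, because the local background varied. Taf11 had the second highest pileup, 298 reads, over a background of 143 reads, which is a fold of 2.08. MED23 had 203 and 189 reads over 122 and 91.6 reads. The median background over the 67 regions was 57.5 reads, against 48.2 over all regions. It ran from 44.4, the lowest value in the whole list, to 143 reads. At MED1, MED11, MED25 and Taf3 regions sat on this lowest background, as did 39.7% of all regions in the list. The pileups of these member regions, 77 to 128 reads, gave folds of 1.72 to 2.84.

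**Figure D5:**
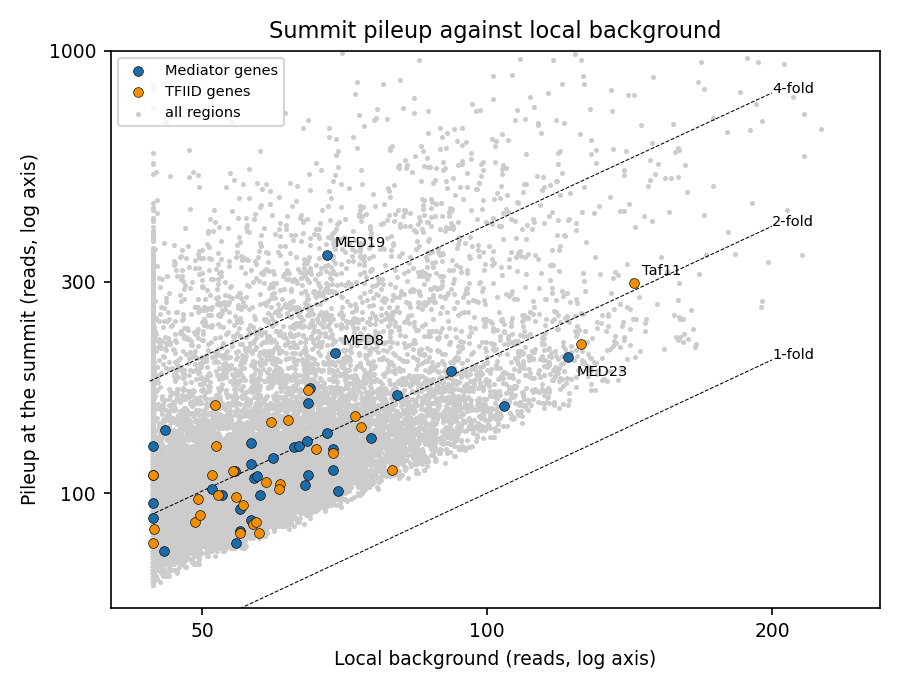
Read pileup at the summit (vertical) against local background (horizontal, both in reads on log axes) for regions of Mediator genes (blue), TFIID genes (orange) and the whole list (grey, points beyond the axes not drawn). Dashed lines mark equal fold. Taf11 and MED23 combine high pileup with high background, at folds of 2.08 and 1.66, and MED19 lies above the 4-fold line.

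Other parts of the transcription machinery, 34 genes whose symbols fall outside the rule, were described in the same way. A region was found at 26 of them (76.5%) and a strong one at 4 (11.8%), and the median of the highest fold was 2.24. All 4 genes of the Mediator kinase module had regions. Folds reached 4.89 (4.27 to 5.58) at skd, the 34621-bp gene for MED13, which had 10 regions and 4 strong ones. They were 2.29 at CycC, 2.12 at kto and 1.93 at Cdk8. The core subunit gene ix had 1.79. Among the TBP family, Trf2 had the highest fold with 6.48 (5.98 to 7.01), Trf had 2.07 and Tbp itself 1.85. Trf2 and skd are far longer than any member.

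RNA polymerase II subunit genes had a region at 10 of 13, none of them strong, with highest folds from 1.90 at Polr2G to 2.51 at Polr2J. Genes with a symbol beginning TfII had one at 6 of 9, with TfIIFalpha at 3.07 (2.66 to 3.52). Of the male germline paralogues of Taf genes, nht and can had no region, as was the case for Taf12L. Another, sa, had 2.01. The last, mia, had a fold of 7.33 (6.63 to 8.09) at 3R 5547180 to 5547845, a region that reaches the 500-bp margin of mia but has most of its length inside the neighbouring gene CG2519. Of the 3 regions of mia it was the only strong one and the only one within 500 bp of an end. The others lay inside mia.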

How the data were processed

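Each of the 2 D17 libraries was an ATAC-seq library made with a commercial kit, per the labels. Tools listed in the submitters' processing notes, with no role stated, are MACS2 (version 2.2.6), Bowtie2 (2.3.5.1), Trim Galore (0.6.4), bedtools (2.29.2) and SAMtools (1.13), with dm6 and BDGP6 as genome builds. No source used here says whether reads were shifted for the transposase or the libraries pooled. The deposited list gives each region a score, a fold (ratio of summit pileup to local background), a −log10 p-value, a −log10 q-value and a summit. These meanings were read from its layout and values. Total depth is unknown.

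The pileup was recovered as the whole number that meets the deposited fold, taken as (pileup + 1)/(background + 1), and the deposited p-value, taken as a Poisson tail. The largest relative error was 2.11e-05 in 26571 regions. Gene positions come from the RefSeq table of the Release 6 assembly, which gives no strand. A planned share at annotated starts, a planned motif search and printed sequences were therefore left out. Shares have exact binomial 95% intervals, which cover counting error only. Strong regions number 2683 because of ties. No test was run: there is 1 group and 1 list, and the genes are described beside all 13946 protein-coding genes. All members are named, and partner genes come from a fixed list. Members, lists and the definition of strong regions were chosen with earlier results of these data known. Overlap and pileup recovery were tested on simulated data. Python 3.11.15, numpy 2.4.6, pandas 2.3.3, SciPy 1.17.1 and matplotlib 3.10.9 were used. Alternatives changed the margins, windows, overlap rule, score limit, definition of strong regions and the genes in the background.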

Additional observations from a re-analysis of the deposited data

How the results depend on the processing

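With a margin of 1000 bp the share of members with a region was 85.0%, against 83.8% of all protein-coding genes, and the share with a region at an end in a window of 1000 bp was also 85.0%, against 80.6%. The order of members and background thus turned for the first share, by a difference within the interval of the members' share. It turned too among the 50% of regions with the higher score, with 62.5% against 57.7%. With the summit inside the end window the share at ends was 52.5%, against 44.6%. The median of the highest fold was 2.02 on gene bodies alone, against 2.10. The share of summits near an end was 11.8% at 200 bp, against 7.44%, and 79.4% at 1000 bp, against 47.1%. Over genes in the members' length range it was 9.40% at 200 bp, and no such share was computed at 1000 bp. Any summit inside a gene shorter than 2 kb lies within 1000 bp of an end by construction, so these contrasts also carry gene length. On gene bodies alone 22.2% of member regions touched another protein-coding gene, against 9.91% in a background with genes of every length. The cause was not tested. The median number of regions per member was 1 on gene bodies alone and 1 in the 50% with the higher score, equal to the background, and its order-statistic 95% interval was 1 to 2. The remaining alternatives stayed within the interval of the first value, among them the share without Taf12L (71.8%) and without chromosome 4 (71.1%), both chosen after the values were seen. For a strong region the alternatives gave 2.5 to 7.5%, below the background in each. Those backgrounds hold genes of every length, and no length-matched share was computed for the alternatives. With the first definition 10.8% of genes in the members' length range had a strong region, inside the members' interval of 1.57 to 20.4%. Shares at annotated starts were not run, because strand was not used here. No paired analysis was possible because there is 1 group. Pileups at member regions ran from 74 to 345 reads, which limits how finely their folds can be ranked.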
